A study of Mus musculus with 4 samples.

Results

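The cyclin-dependent kinase (CDK) inhibitors and the pocket proteins are 10 genes that hold back the cell cycle before DNA replication: Cdkn1a, Cdkn1b and Cdkn1c of the Cip/Kip family, Cdkn2a, Cdkn2b, Cdkn2c and Cdkn2d of the INK4 family, and the pocket protein genes Rb1, Rbl1 and Rbl2. Members were found by name, as every array probe whose RefSeq transcript accession belongs to 1 of these genes. This gave 13 of the 41174 probes of the array and 10 of its 17016 named genes. A probe was tested if the scanner software called its red signal well above the local background on both arrays of DAPT or of vehicle. All 13 were tested, among 27290 probes in all.

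DAPT-treated spheres were prostate spheres, three-dimensional cultures grown from basal cells that had been sorted by FACS from the prostates of adult FVB mice, kept in 5 µM DAPT with the medium replaced every 24 h (2 arrays). Vehicle-treated spheres were grown likewise from sorted FVB basal cells in DMSO, also with a change of medium every 24 h (2 arrays). DAPT blocks γ-secretase, which cuts Notch receptors to release their active part, and also cuts other membrane proteins. The comparison addresses how Notch signalling bears on proliferation and differentiation of basal cells. Each array carried sphere RNA in red and a universal mouse reference RNA in green, so a log2 ratio is sphere over reference, and the change is the DAPT mean minus the vehicle mean of these ratios. Whether the spheres on both arrays of a group were grown separately is not stated, nor how many mice gave the cells, and p-values thus rest on a spread between samples that may be technical.

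Cyclins bind and switch on CDKs, which phosphorylate the pocket proteins. Unphosphorylated pocket proteins bind E2F transcription factors and keep genes of DNA replication silent, and phosphorylation releases them. INK4 proteins bind CDK4 and CDK6 and keep D-type cyclins off them, whereas Cip/Kip proteins bind whole cyclin and kinase complexes, above all those with CDK2. Rbl1 (p107) and Rbl2 (p130) pair mainly with the repressive E2Fs, and Rb1 (pRB) mainly with the activating ones. In many epithelia several of these genes, though not all, accompany exit from the cycle, differentiation and senescence.

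The 4 arrays lay on 1 slide and were read in 1 scan. Over all probe spots the median red signal was 2.40 to 2.84 times the local background on the DAPT arrays and 1.83 to 1.95 times on the vehicle arrays. The scanner software marked 49.6% to 50.9% of probe spots as uneven or as outliers on the DAPT arrays and 11.5% to 29.2% on the vehicle arrays. Among the 9 member probes with a single spot per array, 14 of 18 DAPT spots and 6 of 18 vehicle spots carried such a mark. The basal keratin genes Krt5 and Krt14 stood far above the reference in both groups, with mean log2 ratios of 4.92 and 4.24 in DAPT spheres and 4.65 and 4.20 in vehicle spheres. The luminal keratin gene Krt8 stood at 3.79 in DAPT spheres and 4.15 in vehicle spheres and was not called. Trp63, the basal master regulator, was well above background in red on all 4 arrays, at a mean log2 signal of 8.53 in DAPT spheres and 8.24 in vehicle spheres, but in green on none, so no ratio is given for it. Of 8 fibroblast marker genes, all tested, 6 were lower with DAPT (Col1a1, a collagen gene, by -1.58 ± 0.22), and their summed red signal was 8099 to 9371 on the DAPT arrays and 19395 to 24396 on the vehicle arrays. Among the other fixed markers the luminal secretory gene Pbsn and the endothelial genes Cdh5, Kdr and Tie1 had no tested probe.

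Of the 13 member probes, 1 was called higher with DAPT (Rbl1), 1 lower (Cdkn2b) and 11 were not called, by limma with Benjamini-Hochberg adjustment over all 27290 probes. Over all probes tested, 3.18% were called higher and 3.74% lower, or 6.92% in either direction. Both DAPT arrays lay below both vehicle arrays for 7 member probes and above them for 1, while over all probes 30.6% were separated downward and 23.8% upward, or 54.3% in either direction. The median change of the 13 member probes was -0.43, against -0.04 over all probes. By family the median change was -0.52 for the 4 INK4 probes, -0.18 for the 4 Cip/Kip probes and -0.48 for the 5 pocket protein probes. In a bulk sample, fewer cells of a type and less RNA per cell cannot be told apart.

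**Figure D1:**
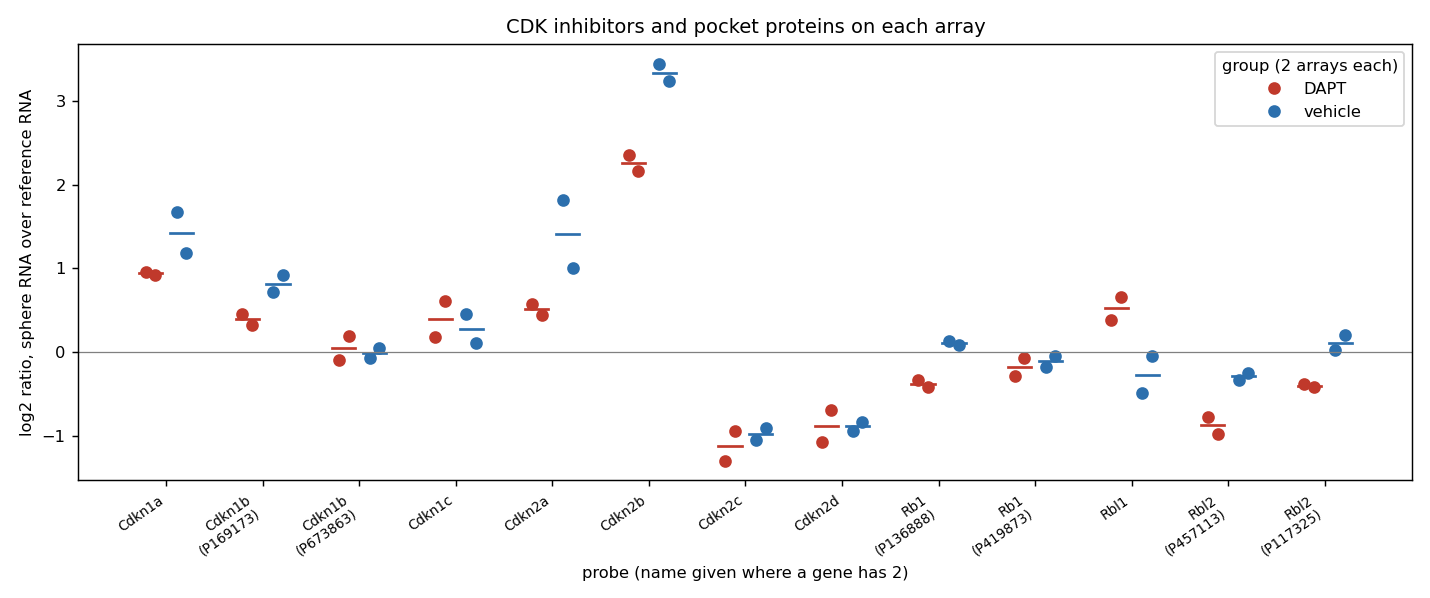
Log2 ratio of sphere RNA over reference RNA (y axis) for each of the 13 member probes (x axis), with 1 point per array, DAPT in red left of vehicle in blue, and a short line at the mean of each group. Cdkn2b lies lower in both DAPT arrays and Rbl1 higher. Cdkn1c, Cdkn2c, Cdkn2d and the second probes of Cdkn1b and Rb1 overlap between the groups.

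Among the INK4 genes, Cdkn2b was lower in DAPT spheres. It encodes p15Ink4b, an inhibitor of CDK4 and CDK6 that TGF-beta induces in epithelial cells. Its log2 ratio was 2.36 and 2.16 on the DAPT arrays, against 3.44 and 3.23 on the vehicle arrays. The groups did not overlap, and the gap between them was several times the gap within either. The change was -1.08 ± 0.20 (SE, limma with 2 arrays per group), which is 2.11-fold lower, with a 95% interval of -1.51 to -0.64 and an adjusted p of 0.0088. Before adjustment between arrays the single Cdkn2b spot was bright, at 24.5 to 40.5 times its local background on the DAPT arrays and 29.9 to 54.7 times on the vehicle arrays. Normalized by loess and Aquantile, red averaged 11.21 in DAPT spheres and 12.49 in vehicle spheres on the log2 scale, while green averaged 8.95 on the DAPT and 9.15 on the vehicle arrays, so the difference lay in the red channel.

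The Cdkn2b call held when any 1 array was left out, with changes of -1.18 to -0.97. It was lost with the scanner's processed signals (-0.67, adjusted p = 0.222), with median centring in place of loess (-0.68, adjusted p = 0.0877), in the red channel alone (-1.28, adjusted p = 0.285, or -1.18, adjusted p = 0.315, after quantile normalization) and with the spots of high local background kept (-1.24, adjusted p = 0.138). The Cdkn2b spot was marked by the scanner software on both DAPT arrays and on neither vehicle array, so a fit without marked spots could not test it. Cdkn2b fell together with the fibroblast markers given above, and their part in its fall was not tested.

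Cdkn2a, its neighbour on chromosome 4, encodes 2 unrelated proteins from separate starts: p16Ink4a, an INK4 inhibitor, and p19Arf, which stabilises p53 through Mdm2. The array had 1 Cdkn2a probe, printed on 10 spots, and the sources used here do not place it within the transcripts, so the products are not told apart. Its log2 ratio was 0.58 and 0.44 on the DAPT arrays, against 1.82 and 1.01 on the vehicle arrays. The groups did not overlap, but the vehicle arrays differed more from each other than vehicle 2 did from either DAPT array. The change of -0.90 ± 0.25 (SE, limma with 2 arrays per group) did not pass, with an adjusted p of 0.055 and a 95% interval of -1.46 to -0.35. Mean log2 red signal was 7.47 in DAPT spheres and 8.29 in vehicle spheres, with green at 6.96 in the DAPT and 6.88 in the vehicle arrays.

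The 10 spots show how well each array measured Cdkn2a. The SD over spots within an array was 0.18 to 0.26. Single spots ran from -0.12 to 0.75 on the DAPT arrays and from 0.72 to 2.04 on the vehicle arrays. Of 20 DAPT spots 17 lay below the lowest vehicle spot, and of 20 vehicle spots 19 lay above the highest DAPT spot. The spread between the vehicle arrays, whose spot medians were 1.86 and 1.01, thus exceeded the spread of spots within an array. The change stayed below 0 in all 18 alternatives run, from -1.78 to -0.50, and 8 of them called it, among them the scanner's processed signals (-1.78, adjusted p = 0.0112), median centring (-0.95, adjusted p = 0.0217) and the fit without vehicle replicate 2 (-1.31, adjusted p = 0.00075). Without vehicle replicate 1 it was -0.50 (adjusted p = 0.221). Another filter, probe summary or a replicate block leaves the change of Cdkn2a at -0.90 and can alter only its adjusted p. Cdkn2a too was lower on the same arrays as the fibroblast markers, whose part was not tested.

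**Figure D2:**
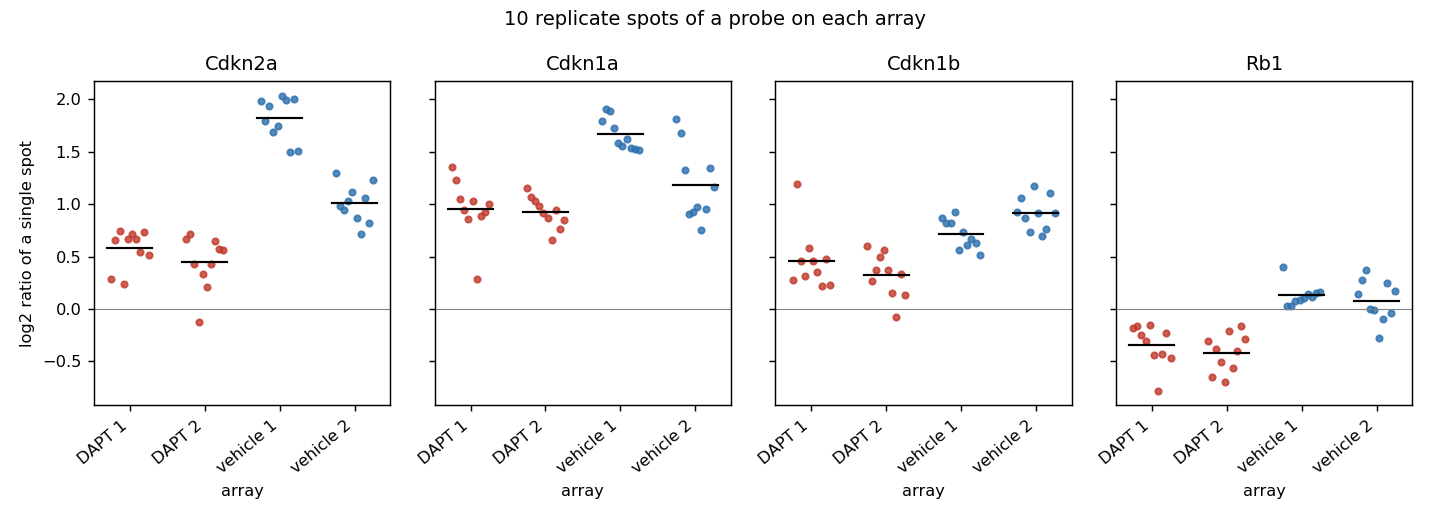
Log2 ratio of each single spot (y axis) on each array (x axis) for the 4 member genes whose probe is printed on 10 spots, with DAPT arrays in red, vehicle arrays in blue and a black line at the mean of an array. The Cdkn2a spots of vehicle 1 stand above those of vehicle 2, and both stand above most DAPT spots.

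The promoters of both genes are shown because Cdkn2b was called, and because its neighbour Cdkn2a, which was not, has a start for each product. Each is the 250 bases before an annotated start, from RefSeq on the GRCm38.p6 build, minus strand, printed 5′ to 3′ in the direction of transcription. Capitals mark an E2F motif, searched on both strands as TTTCCCGC, TTTCGCGC, TTTGCCGC and TTTGGCGC. The first sequence lies at chr4:89311033-89311282, the second at chr4:89294620-89294869 and the third at chr4:89282193-89282442.
Cdkn2b: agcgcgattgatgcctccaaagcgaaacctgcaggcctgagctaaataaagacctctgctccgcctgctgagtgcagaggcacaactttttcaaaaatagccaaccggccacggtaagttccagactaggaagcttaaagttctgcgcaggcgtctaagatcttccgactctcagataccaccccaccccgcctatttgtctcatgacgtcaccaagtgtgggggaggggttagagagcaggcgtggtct
Cdkn2a, upstream start: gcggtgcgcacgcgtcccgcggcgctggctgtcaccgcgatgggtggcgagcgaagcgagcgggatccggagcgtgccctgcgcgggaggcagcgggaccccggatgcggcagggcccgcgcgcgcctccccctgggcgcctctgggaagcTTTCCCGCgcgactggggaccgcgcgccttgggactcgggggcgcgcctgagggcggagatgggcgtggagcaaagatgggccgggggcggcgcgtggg
Cdkn2a, downstream start: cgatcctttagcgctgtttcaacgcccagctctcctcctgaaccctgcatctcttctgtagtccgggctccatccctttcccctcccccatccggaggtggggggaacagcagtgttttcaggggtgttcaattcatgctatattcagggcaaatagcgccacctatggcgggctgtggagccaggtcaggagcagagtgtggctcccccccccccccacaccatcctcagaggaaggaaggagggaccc
An E2F motif stood 99 to 92 bases before the upstream Cdkn2a start, and none stood in the Cdkn2b window or before the downstream Cdkn2a start. The motif bound by RBPJ, the DNA-binding partner of active Notch, searched as GTGGGAA on both strands, was in none of the 11 promoters the table holds for 8 member genes, and in 5.42% of 32851 promoters of that length. Cdkn1c and Rb1 are not among the 8. A match is a description of letters, and its absence says nothing about binding.

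The other INK4 genes were not called. Cdkn2c (p18Ink4c) had log2 ratios of -1.30 and -0.95 on the DAPT arrays, against -1.05 and -0.91 on the vehicle arrays, which overlap. The change was -0.15 ± 0.21 (95% interval -0.59 to 0.30, adjusted p = 0.715, limma) and took the other sign with median centring (0.31). Cdkn2d (p19Ink4d) had -1.08 and -0.70 on the DAPT arrays, against -0.94 and -0.84 on the vehicle arrays, and a change of 0.00 ± 0.21 (95% interval -0.45 to 0.46, adjusted p = 0.993, limma). Both channels of Cdkn2d were brighter on the DAPT arrays, red at 12.35 on the DAPT and 11.29 on the vehicle arrays and green at 13.23 on the DAPT and 12.18 on the vehicle arrays (mean log2 signals). Green held the same reference RNA on every array, and in red alone the change read 1.06 without a call.

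No Cip/Kip gene was called. Cdkn1a encodes p21, the CDK inhibitor induced by p53 and by many stress and differentiation signals. Its log2 ratio was 0.96 and 0.92 on the DAPT arrays, against 1.67 and 1.18 on the vehicle arrays. The groups did not overlap, and the change of -0.49 ± 0.21 did not pass (95% interval -0.95 to -0.02, adjusted p = 0.195, limma). The red signal hardly differed, at a mean of 10.81 in DAPT spheres and 10.86 in vehicle spheres (log2), while green stood at 9.87 on the DAPT and 9.43 on the vehicle arrays. The lower ratio of Cdkn1a thus went with a brighter reference channel. Of the 20 DAPT spots of Cdkn1a 2 lay below the lowest vehicle spot, and of its 20 vehicle spots 12 lay above the highest DAPT spot.

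Cdkn1b encodes p27, which restrains CDK2 in resting cells and is removed through the Skp2 ubiquitin ligase. Its probe with 10 spots had log2 ratios of 0.45 and 0.32 on the DAPT arrays, against 0.71 and 0.92 on the vehicle arrays. The groups did not overlap, and the change of -0.43 ± 0.20 did not pass (95% interval -0.86 to 0.00, adjusted p = 0.213, limma). Both channels were dimmer on the DAPT arrays, red by 0.84 and green by 0.41 on the log2 scale. Of its 20 DAPT spots 16 lay below the lowest vehicle spot, and of its 20 vehicle spots 0 lay above the highest DAPT spot. That highest spot, at 1.19 on DAPT 1, stood apart from the next highest DAPT spot, at 0.61 on DAPT 2. All 20 DAPT spots and 6 vehicle spots were marked by the scanner software. The second Cdkn1b probe, dim at 1.41 to 2.01 times its local background on the DAPT arrays, changed by 0.06 ± 0.20 and gave no call. Cdkn1c (p57), an imprinted inhibitor that in many tissues marks cells leaving the cycle, had log2 ratios of 0.18 and 0.61 on the DAPT arrays, against 0.45 and 0.10 on the vehicle arrays. These overlap, and the change was 0.12 ± 0.22 (95% interval -0.37 to 0.60, adjusted p = 0.793, limma).

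**Figure D3:**
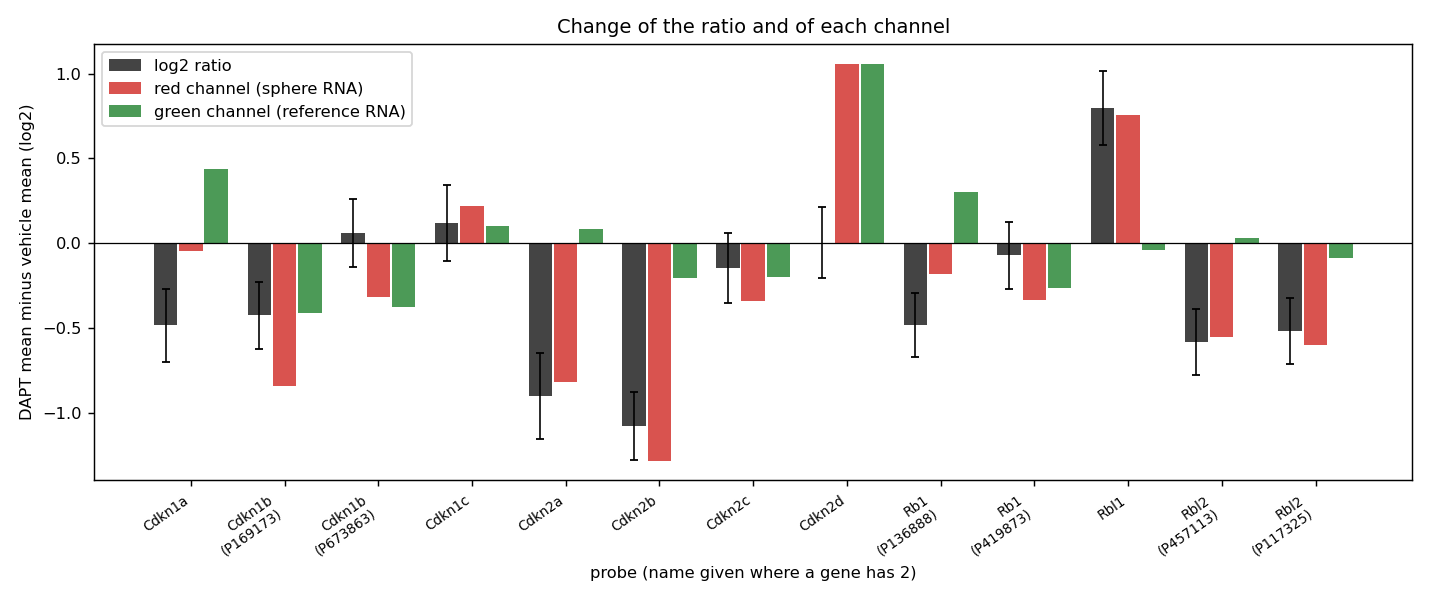
Mean of the DAPT arrays minus mean of the vehicle arrays (y axis, log2) for the ratio in dark grey with its SE from limma, for the red channel and for the green channel, by member probe (x axis). For Cdkn2a, Cdkn2b, Rbl1 and Rbl2 the red channel carries the change. For Cdkn1a and the Rb1 probe with 10 spots green differs more than red, and for Cdkn2d both channels moved by 1.05 to 1.06.

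Of the pocket protein genes only Rbl1 was called, and it was higher in DAPT spheres. Rbl1 encodes p107, the pocket protein that is scarce in resting cells and accumulates in cycling ones, and whose gene is itself a target of E2F. Its log2 ratio was 0.38 and 0.66 on the DAPT arrays, against -0.49 and -0.05 on the vehicle arrays. The groups did not overlap. The change was 0.80 ± 0.22, or 1.74-fold higher (95% interval 0.32 to 1.27), and passed narrowly with an adjusted p of 0.0498 in limma. Mean log2 red signal was 8.60 in DAPT spheres and 7.85 in vehicle spheres, with green at 8.08 on the DAPT and 8.12 on the vehicle arrays, so the difference lay in the red channel. The spot was dim, at 4.31 and 5.17 times its local background on the DAPT arrays and 1.75 and 2.05 times on the vehicle arrays.

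The call of Rbl1 held in 8 of the 17 alternatives that could test it. It was lost, among others, without DAPT replicate 2 (0.66, adjusted p = 0.207) and without vehicle replicate 1 (0.58, adjusted p = 0.151), and its spot was marked on both DAPT arrays and on neither vehicle array. The change was above 0 in all 17 alternatives run, from 0.58 to 1.02. Those with another filter, probe summary or a replicate block leave the change at 0.80 and can alter only its adjusted p. The promoter of Rbl1 is shown because it holds an E2F motif, in capitals, 18 to 11 bases before the start. It lies at chr2:157204535-157204784 on the minus strand (RefSeq, GRCm38.p6).
Rbl1: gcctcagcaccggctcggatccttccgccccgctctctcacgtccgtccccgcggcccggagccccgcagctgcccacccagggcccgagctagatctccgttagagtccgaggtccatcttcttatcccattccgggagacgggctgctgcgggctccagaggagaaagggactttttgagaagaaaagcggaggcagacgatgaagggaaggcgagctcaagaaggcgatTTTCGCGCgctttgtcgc
Such a motif stood in 1.86% of all 32851 promoters of that length. It stood in 6 of the 18 promoters found for 16 of the E2F target genes of the G1/S step. Among the 8 member genes with a promoter to search it stood only before Rbl1 and the upstream Cdkn2a start. Cdkn1c and Rb1 had none to search.

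Rbl2 encodes p130, the pocket protein most abundant in resting cells, and was measured by 2 probes. The first had log2 ratios of -0.78 and -0.98 on the DAPT arrays, against -0.33 and -0.25 on the vehicle arrays. The second had -0.38 and -0.43 on the DAPT arrays, against 0.03 and 0.20 on the vehicle arrays. Neither overlapped between the groups, and their changes lay close together at -0.59 ± 0.20 and -0.52 ± 0.19, but neither passed (adjusted p = 0.0935 and 0.13, limma). Both stayed below 0 in all alternatives run, 17 for the first and 15 for the second, without a call in any. In red alone the first probe overlapped between the groups, with log2 signals of 8.39 and 8.14 on the DAPT arrays and 8.21 and 9.42 on the vehicle arrays.

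Rb1 encodes pRB, the retinoblastoma protein, and also had 2 probes. The brighter one, with 10 spots, had log2 ratios of -0.34 and -0.42 on the DAPT arrays, against 0.13 and 0.08 on the vehicle arrays. The groups stood apart by far more than the arrays within them. The change of -0.48 ± 0.19 still did not pass (95% interval -0.90 to -0.07, adjusted p = 0.15, limma). Of its 20 DAPT spots 13 lay below the lowest vehicle spot, and of its 20 vehicle spots 19 lay above the highest DAPT spot. The scanner software marked 19 of the DAPT spots and 4 of the vehicle spots. Green was higher by 0.30 on the DAPT arrays and red lower by 0.18, so more of the change lay in green. In red alone the groups overlapped. The second Rb1 probe, at 1.69 to 1.91 times its local background over the 4 arrays, changed by -0.07 ± 0.20 (adjusted p = 0.862).

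The lists around these genes were read in the same fit, with the brightest tested probe standing for a gene. Over all 21469 genes so counted, 2.84% were called higher and 3.88% lower, 6.71% in all, with a median change of -0.06. Of 106 genes tested in 10 lists on the kinases, E2Fs and regulators of the members, 15 were higher, 2 lower and 89 not called. With probes required to be well above background in red on all 4 arrays, 11 were higher and 2 lower.

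Cyclins and their kinases are the partners that CDK inhibitors act on. Of 9 cyclin genes tested 2 were higher, Ccna2 (cyclin A2, of S phase and mitosis) by 1.21 ± 0.21 (adjusted p = 0.00681) and Ccnb1 (cyclin B1, of mitosis) by 0.88 ± 0.20 (adjusted p = 0.0234), with all 3 Ccnb1 probes called. Ccne1, cyclin E1 of the G1/S step, changed by 0.17 ± 0.19 and did not pass, and Ccnd1, which no probe was named for, was not analysed here. Of 9 kinases and activators 1 was higher, the mitotic kinase gene Cdk1 at 0.94 ± 0.21 (adjusted p = 0.02), whose second probe stood at -0.10 without a call. The G1 kinases did not pass, with Cdk2 at 0.09 ± 0.20, Cdk4 at -0.09 ± 0.20 and Cdk6 at 0.63 ± 0.23 (adjusted p = 0.129). Without DAPT replicate 1 only 1 cyclin was higher, and without DAPT replicate 2 none of the kinases.

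Targets of E2F are the genes that pocket proteins restrain. Of 18 E2F targets of the G1/S step 9 were higher, none was lower and 17 lay above 0. Their median was 0.74 against -0.06 over all genes, of which 9347 of 21469 lay above 0. Of the 9, Cdc6 was well above background in red on neither vehicle array and Rpa2 on 1, so they were tested through the DAPT arrays, where they were brighter. With the filter on all 4 arrays, 7 of 15 were higher. The replicative helicase gene Mcm3 rose by 1.16 ± 0.20 (adjusted p = 0.00663), Uhrf1, which maintains DNA methylation at replication, by 1.12 ± 0.21 (adjusted p = 0.0101). Rpa2, a subunit of the single-strand binding complex, had a change of 1.02 ± 0.20 (adjusted p = 0.0124), with the limit just given. Other members of that list overlap with cell cycle results already known from these arrays, so the count is not independent evidence. Only 4 of the 18 were called without DAPT replicate 2, 5 without vehicle replicate 1 and 6 without DAPT replicate 1, while 13 were called with median centring, 5 with a normexp offset of 10, 6 with the processed signals and none in the red channel alone or with the high-background spots kept. Without DAPT replicate 1, and likewise without vehicle replicate 1, 1 target was called lower.

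Among 8 E2F and DP factors tested 1 was higher, E2f4, the repressive E2F that binds p107 and p130 (adjusted p = 0.0164). Its red signal was not well above background on either vehicle array, so it was tested through the DAPT arrays and no size is given. With the filter on all 4 arrays 0 of 6 were higher, as were 0 of 8 without DAPT replicate 1. E2f1, the activating E2F that pRB restrains, changed by -0.14 ± 0.19 and did not pass. Of 6 genes of the MuvB complex and its activators 1 was higher, Mybl2 (B-Myb) by 0.96 ± 0.20 (adjusted p = 0.0142), and none without DAPT replicate 2. Of 10 chromatin partners of pocket proteins 1 was higher, Arid4a by 1.67 ± 0.25 (adjusted p = 0.00253), but its second probe stood at -0.26 without a call, so the probes disagree. The called probe was well above background in red on both DAPT arrays and on 1 vehicle array, and with the filter on all 4 arrays 0 of 10 were higher.

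The remaining lists hold genes that act on the inhibitors themselves. Of 19 p53 genes tested 2 were lower, the antiproliferative gene Btg2 at -1.10 ± 0.20 (adjusted p = 0.00889, all 3 probes called) and the stress gene Gadd45a at -1.06 ± 0.20 (adjusted p = 0.00917), and none was higher by its brightest probe. The calls lower and higher were 0 and 0 with the processed signals, 0 and 2 with median centring, 5 and 0 with scale normalization, and 4 and 1 without vehicle replicate 1. Trp53 at -0.20 ± 0.21 and Mdm2 at -0.17 ± 0.19 did not pass. Beyond the brightest probes, and named after their values were seen, a second probe of Aen was called higher (1.25) and one of Trp53inp1 lower (-0.72). Of 7 genes of the SCF ligase that removes p27 none was called, with Skp2 at -0.05 ± 0.23. Of 7 Polycomb genes, which silence the Cdkn2a and Cdkn2b locus in cycling cells, none was called, with Bmi1 at -0.19 ± 0.20 and Ezh2 at -0.15 ± 0.21. Of 14 other regulators none was called by its brightest probe, with Myc at 0.07 ± 0.20, although a second probe of Klf6 was lower (-1.03, adjusted p = 0.00894).

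**Figure D4:**
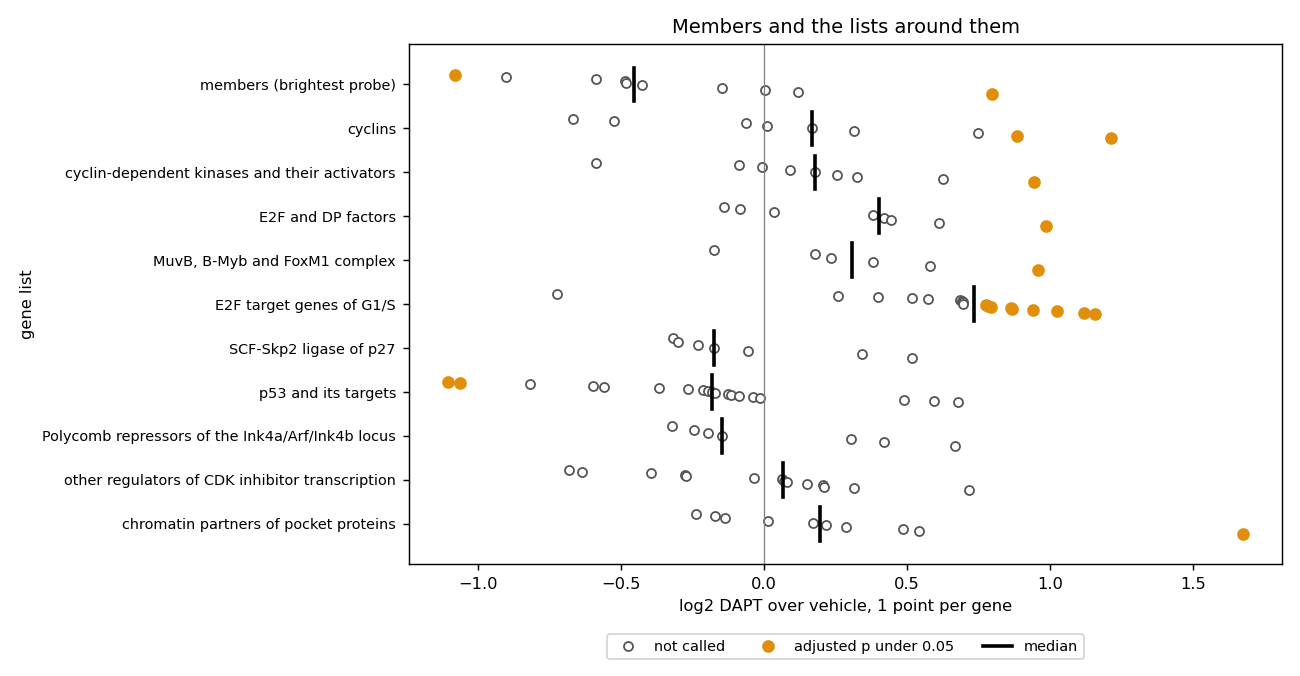
Log2 change of DAPT over vehicle (x axis) for the member genes and for each list (y axis), with 1 point per gene by its brightest tested probe, filled where the adjusted p is under 0.05, and a black bar at the median. The members lie mostly left of 0, and 17 of the 18 E2F targets lie right of it, with a median of 0.74. Over all 21469 genes by that probe, 9347 lie right of 0.

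Under other processing the members kept to these patterns unevenly. Cdkn2b stayed below 0 in all 17 alternatives run, from -1.69 to -0.67, and was called in 12 of them. For genes with 1 probe, as Cdkn2a, Cdkn2b and Rbl1, other filters, probe summaries and the replicate block leave the change as reported. Those alternatives can alter only the adjusted p, so the counts of alternatives are not counts of separate checks. Cdkn1a stayed below 0 as well, but from -0.74 to -0.01, with its smallest values in the red channel alone. Cdkn1c, Cdkn2c, Cdkn2d and the dim probes of Cdkn1b and Rb1 changed sign in at least 1 alternative.

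**Figure D5:**
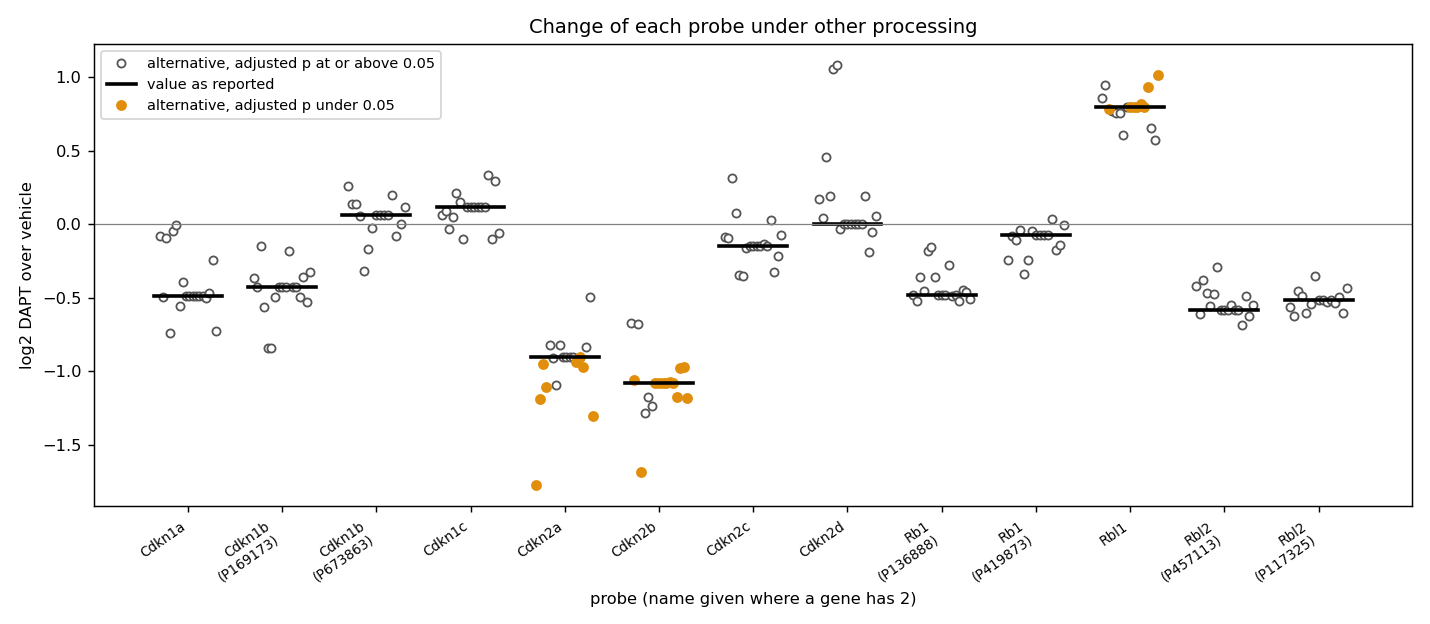
Log2 change of DAPT over vehicle (y axis) for each member probe (x axis), with a black line at the reported value and a point for each alternative, filled where its adjusted p is under 0.05. Filled points occur for Cdkn2a (8 of 18 alternatives), Cdkn2b (12 of 17) and Rbl1 (8 of 17). For these genes, each with 1 probe, filters, probe summaries and the replicate block leave the change at the reported value.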

How the data were processed

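RNA of 2 DAPT-treated and 2 vehicle-treated sphere samples was measured on 4 arrays of 2 colours, grouped by their titles. Per the file headers, Agilent Feature Extraction 10.7.3.1 gave the median intensity of each spot and of its local background, not normalized. The same deposited files hold processed intensities, background-subtracted and dye-normalized by that software, and a log10 ratio of red over green. The authors' deposited value table holds log2 ratios of the same spots, with a normalization not given in the sources used here and column medians of -0.015, -0.011, 0.00072 and -0.011. It correlated at 0.9995 to 0.9998 with the ratios computed here and at 0.869 to 0.902 with the scanner's, in the direction of sphere over reference.

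The files used here hold no mean spot signals, so median ones were used. On DAPT 2, 13 spots whose local background exceeded the median of that array more than 5 times were left out. Background was corrected with limma's normexp (offset 50), loess was fitted within arrays with control spots at weight 0, and each probe took the mean of its spots. It counted as above background where at least 0.5 of its spots did. Of 41174 probes 24375 were named through RefSeq accessions (GRCm38.p6). Groups were compared with limma 3.58.1 in R 4.3.3 (two-sided, 2 residual and 9.86 prior degrees of freedom, threshold 0.05), a step tested on simulated data. Red and green levels are after loess and Aquantile normalization, and no probe spot was saturated. The number of arrays limits the precision.

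Every member is named with every probe. From each list the text names up to 3 genes called in each direction, those of largest change, and a fixed set of direct partners. The members and lists were chosen with earlier results of these data known. All arrays lay on 1 slide, so no slide or scan block was possible. Alternatives covered background, normalization, the red channel alone, filters, probe summaries, the value table, a replicate block and leaving out each array.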

Additional observations from a re-analysis of the deposited data

How the results depend on the processing

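Of 27290 probes 867 were called higher and 1022 lower (45.9% higher), of 13 member probes 1 and 1, and of 106 list genes 15 and 2. In that order, the calls higher and lower were 387 and 561, 0 and 1, and 10 and 0 with the processed intensities. They were 517 and 659, 0 and 2, and 10 and 2 with a normexp offset of 10. With median centring they were 1605 and 697 (69.7% higher), 1 and 1 among members with Cdkn2a in place of Cdkn2b lower, and 26 and 0. It moved the median of all probes by 0.14, and relative to the median Cdkn2b stood at -0.78 there against -1.03 as reported. With scale normalization they were 498 and 1200 (29.3% higher), 0 and 2, and 14 and 7. The red channel alone called 0 and 1 probes after Aquantile normalization and 0 and 0 after quantile normalization by limma (3420 and 3218 at an unadjusted p under 0.05), with 0 members and 0 list genes in either direction. Keeping the 13 spots of high background left 3 and 48 probes, and 0 members and 0 list genes either way. Without marked spots 4139 probes could be tested, with 200 and 79 calls (71.7% higher), and 3 member probes with none, and 22 list genes with 4 and 0. Without a filter 0 members were higher. With the authors' value table and with the replicate block 2 members were lower, Cdkn2a joining Cdkn2b, and the block called 1098 and 1253 probes. Same-numbered arrays share only a number: DAPT 1 minus DAPT 2 correlated at 0.0942 with vehicle 1 minus vehicle 2 over 27290 probes. Leaving out 1 array gave 539 to 1297 probes higher and 678 to 1400 lower, 0 to 1 member higher and 1 to 2 lower, and 8 to 17 list genes higher and 2 to 7 lower. The lone array of a group is then assumed to vary like the others. The causes of these differences were not tested, except that the fit without marked spots has fewer probes. With 2 arrays per group, and red signals of Cdkn2a, Rbl1 and Rbl2 within a few times the background, small changes are not resolved.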
